A study of Mus musculus with 20 samples.

Results

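The 10 genes described here belong to fatty acid synthesis and its surroundings. *Acly*, *Acaca*, *Acacb*, *Fasn*, *Elovl6* and *Scd1* encode enzymes that act between citrate, malonyl-CoA and long-chain fatty acids. *Me1* and *Gpd1* encode enzymes that supply NADPH and the glycerol backbone of triglycerides. *Mlxipl* encodes an activator of lipogenic genes, and *Thrsp* a protein whose expression follows lipogenesis. They were listed by name as members of a pathway, and all 10 were found among the 43422 genes measured in each library. RNA of the abdominal aorta was sequenced from 20 mice, described as male, labelled as C57BL/6 and 6 months old, with 5 mice in each of 4 groups. Wild-type (WT) mice and mice lacking *Plod1*, the gene of lysyl hydroxylase 1 (LH1), in the whole animal carried osmotic pumps for 14 days that delivered either saline or angiotensin II (Ang II) at 1000 ng/kg per minute. The methods give the background of both genotypes as C57Bl/6NCrl, and an age at pump implantation below that of the labels. Each genotype was thus studied with and without Ang II, and the knockout mice of both arms lack LH1 throughout life. The question addressed was whether the levels of these genes followed the fat content of the samples or were lower still in *Plod1-/-* mice under Ang II. Values are FPKM, a fragment count scaled for the length of the transcript and the depth of the library, and can be set side by side between genes.

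Fatty acid synthesis starts in the cytosol from citrate, which is split to acetyl-CoA, carboxylated to malonyl-CoA and joined in cycles into palmitate, which is then elongated, desaturated and stored as triglyceride. Reducing power comes as NADPH, and transcription is driven mainly by the factors SREBP-1c and ChREBP under insulin and carbohydrate. Liver, white fat and brown fat are the best-known sites, and the fat around the mouse aorta has both white and brown features. In a bulk sample of the vessel, a change in the number of adipocytes cannot be told apart from a change in RNA per adipocyte.

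*Plod1* was 22.8 to 29.7 FPKM in WT mice and at most 0.0415 in *Plod1-/-* mice, so every library matched its genotype label. The summed FPKM of 8 smooth muscle markers, among them *Acta2* and *Myh11*, was 2327 to 20757 over the 20 mice, so the vessel wall was present in each sample. Estimated from the lowest FPKM values, the relative depth of the libraries ran from 0.901 to 1.09. Some libraries stood apart. *Xist*, an RNA of female cells, was 15.1 FPKM in saline-treated *Plod1-/-* mouse 5 and 7.93 in Ang II-treated *Plod1-/-* mouse 1, and at most 0.0328 in the other libraries, which goes against the male sex that the methods give for all animals. A limit of 50 FPKM of *Acta1* was used to set libraries apart for skeletal muscle RNA, so others may hold less of it. Ang II-treated WT mice 2, 3 and 5 exceeded it, at 140.6, 77.2 and 111.0 FPKM, against at most 8.3 elsewhere. The same 3 libraries held the highest mean level of the 10 genes, so results are also given without them. Mitochondrially encoded genes made up 14.6 to 29.1% of all FPKM in Ang II-treated WT mice, and 8.37 to 14.6% in saline-treated WT, 9.93 to 16.2% in saline-treated and 9.23 to 21.1% in Ang II-treated *Plod1-/-* mice. With these genes left out and the rest rescaled, as many of the 10 genes were called in each comparison. In the *Acta1* libraries 22548 to 23673 genes were above 0, against 23703 to 30912 in the others. The libraries were not strand-specific, and genes on the opposite strand overlap 6 of the 10 genes. Reads of the 2 strands cannot be told apart there, and no such overlapping gene exceeded 2.21 FPKM. For *Acacb*, *Elovl6* and *Mlxipl*, the highest value of the overlapping gene was above the lowest value of the gene itself.

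The promoters of 3 of the genes are shown because *Fasn*, *Elovl6* and *Me1* are among the 4 genes whose response to Ang II differed between the genotypes beside the fat markers. Of the 10 genes, 8 had a promoter window in RefSeq (GRCm38.p6; 250 bases before to 50 after the start), and *Scd1* and *Gpd1* had none. The windows of *Acaca* and *Acacb* lay 65766 and 18983 bases from the GENCODE gene start, at starts inside the gene, and are counted among the 8. *Thrsp*, also among the 4 genes, is not printed, and its window held 70 bases before the outermost annotated start. The bases before the outermost annotated start are printed 5′ to 3′ on the strand of the gene. Capitals mark CCAAT boxes (CCAAT or its reverse complement) and GC boxes (GGGCGG or its reverse complement).
*Fasn*, chr11:120824548-120824797, minus strand: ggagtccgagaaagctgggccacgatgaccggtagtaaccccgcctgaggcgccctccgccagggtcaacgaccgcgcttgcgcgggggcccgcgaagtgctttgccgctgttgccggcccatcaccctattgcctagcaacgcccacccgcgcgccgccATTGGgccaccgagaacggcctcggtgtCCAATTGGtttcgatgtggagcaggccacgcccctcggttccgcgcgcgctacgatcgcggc
*Elovl6*, chr3:129532136-129532354, plus strand: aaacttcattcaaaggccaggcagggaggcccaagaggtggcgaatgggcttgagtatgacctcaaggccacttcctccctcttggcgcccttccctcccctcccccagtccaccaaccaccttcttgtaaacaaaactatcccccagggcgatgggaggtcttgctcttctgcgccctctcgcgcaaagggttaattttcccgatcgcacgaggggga
*Me1*, chr9:86695954-86696164, minus strand: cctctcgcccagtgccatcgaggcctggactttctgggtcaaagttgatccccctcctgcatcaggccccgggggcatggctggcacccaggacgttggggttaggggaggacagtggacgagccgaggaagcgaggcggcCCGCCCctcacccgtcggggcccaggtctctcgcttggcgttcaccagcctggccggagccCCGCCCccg
The *Fasn* stretch held 3 CCAAT boxes, of which the last 2 overlapped each other, the *Elovl6* stretch held no match, and the *Me1* stretch held GC boxes only. Over the whole windows, a CCAAT box was found in 5 of the 8 promoters, against 37.4% of 32851 mouse promoters of the same length, and a GC box in 3 of 8, against 35.7%. The E-box CACGTG was found in 1 of the 8, that of *Mlxipl*, against 7.15% of all promoters. The sterol response element TCACNCCAC, found in 1.24% of all promoters, was in none of the 8.

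Among the enzymes that supply malonyl-CoA, *Acly*, *Acaca* and *Acacb* were all highest in Ang II-treated WT mice. *Acly* (ENSMUSG00000020917; GRCm38 chromosome 11, 100476353 to 100528000), ATP citrate lyase, releases acetyl-CoA from citrate. Its level was 24.1 ± 9.37 FPKM (SD, n = 5) under saline and 155.5 ± 99.9 under Ang II in WT mice, and 37.9 ± 29.1 and 37.8 ± 13.9 in *Plod1-/-* mice. *Acaca* (ENSMUSG00000020532; chromosome 11, 84129672 to 84401651), the cytosolic acetyl-CoA carboxylase that makes malonyl-CoA for synthesis, ran from 12.5 to 71.6 FPKM in Ang II-treated WT mice and from 1.82 to 14.7 in Ang II-treated *Plod1-/-* mice. *Acacb* (ENSMUSG00000042010; chromosome 5, 114146535 to 114250761), the carboxylase at the mitochondrial surface, ran from 18.05 to 102.3 FPKM and from 0.938 to 31.1 in the same groups. In all 3 genes the highest *Plod1-/-* mouse under Ang II lay above the lowest WT mouse.

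*Fasn* (ENSMUSG00000025153; chromosome 11, 120805846 to 120824547) encodes fatty acid synthase, which builds palmitate. Its FPKM in mice 1 to 5 was 11.8, 12.4, 55.1, 6.59 and 89.4 under saline and 179.3, 1041.7, 860.3, 186.1 and 1341.2 under Ang II among WT mice. Among *Plod1-/-* mice it was 85.3, 342.2, 37.1, 15.1 and 19.6 under saline and 11.8, 50.03, 18.3, 35.4 and 88.5 under Ang II. Every Ang II-treated WT mouse was thus above every Ang II-treated *Plod1-/-* mouse and every saline-treated WT mouse, whereas the *Plod1-/-* groups overlapped, with saline-treated mouse 2 the highest of both.

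*Elovl6* (ENSMUSG00000041220; chromosome 3, 129532355 to 129638495) encodes the elongase that extends palmitate to stearate. Its FPKM in mice 1 to 5 was 0.547, 0.730, 3.17, 0.642 and 5.53 under saline and 26.0, 41.0, 39.1, 10.1 and 64.9 under Ang II among WT mice. Among *Plod1-/-* mice it was 6.10, 19.8, 1.97, 1.05 and 1.58 under saline and 1.49, 3.59, 2.40, 3.30 and 5.95 under Ang II. The order of the groups was as for *Fasn*, and the Ang II-treated genotypes did not overlap.

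*Scd1* (ENSMUSG00000037071; chromosome 19, 44394455 to 44407879), stearoyl-CoA desaturase, introduces the double bond of oleate and had the highest level of the 10 genes. Its FPKM in mice 1 to 5 was 39.5, 30.04, 211.5, 23.7 and 322.4 under saline and 1518, 2343, 2366, 798 and 4142 under Ang II among WT mice. Among *Plod1-/-* mice it was 301, 1391, 137, 57.6 and 49.1 under saline and 103, 349, 198, 725 and 1829.6 under Ang II. Unlike for *Fasn* and *Elovl6*, Ang II-treated *Plod1-/-* mouse 5 lay within the range of the Ang II-treated WT mice.

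*Me1* and *Gpd1* feed the pathway from the side. *Me1* (ENSMUSG00000032418; chromosome 9, 86581371 to 86695953), cytosolic malic enzyme, yields NADPH. Its FPKM in mice 1 to 5 was 22.0, 23.9, 27.2, 19.4 and 33.0 under saline and 51.4, 110.9, 104.5, 44.9 and 142.6 under Ang II among WT mice. Among *Plod1-/-* mice it was 30.1, 68.3, 26.7, 25.4 and 25.6 under saline and 14.9, 27.0, 15.1, 20.2 and 25.6 under Ang II. Every Ang II-treated WT mouse was above every other mouse but saline-treated *Plod1-/-* mouse 2.

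*Gpd1* (ENSMUSG00000023019; chromosome 15, 99717515 to 99725005), glycerol-3-phosphate dehydrogenase, makes the glycerol backbone of triglycerides. It was 51.3 ± 58.5 FPKM (SD, n = 5) under saline and 937 ± 543 under Ang II in WT mice, and 163 ± 227 and 126 ± 108 in *Plod1-/-* mice. Under Ang II the highest *Plod1-/-* mouse, at 283.1 FPKM, lay above the lowest WT mouse, at 218.0 FPKM.

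*Mlxipl* (ENSMUSG00000005373; chromosome 5, 135089890 to 135138382) encodes ChREBP, the carbohydrate-responsive activator of the lipogenic genes. Its level was 3.88 ± 2.73 FPKM (SD, n = 5) under saline and 40.5 ± 17.9 under Ang II in WT mice, and 6.30 ± 5.66 and 11.6 ± 10.8 in *Plod1-/-* mice, and the Ang II-treated genotypes overlapped. *Thrsp* (ENSMUSG00000035686; chromosome 7, 97412938 to 97417730), Spot 14, is a nuclear and cytosolic protein whose expression follows lipogenesis. Its FPKM in mice 1 to 5 was 103.6, 558.4, 443.5, 104.6 and 690.1 in Ang II-treated WT and 16.1, 81.6, 14.5, 20.96 and 59.7 in Ang II-treated *Plod1-/-* mice, with no overlap. Under saline *Thrsp* ran from 2.40 to 41.3 in WT and from 10.99 to 190.5 in *Plod1-/-* mice.

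**Figure D1:**
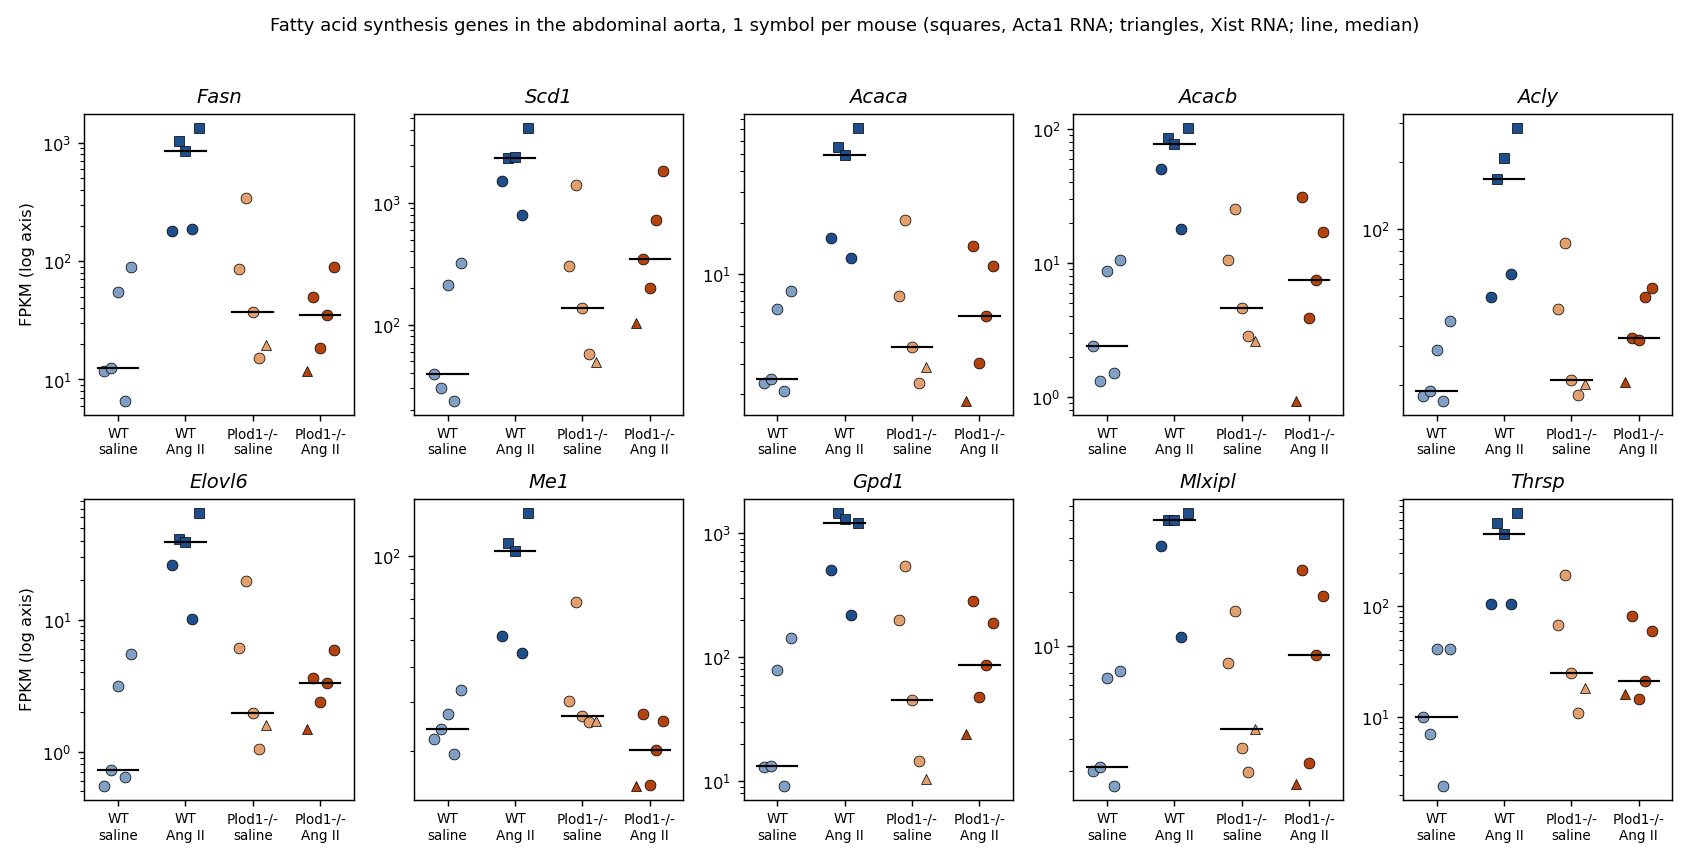
FPKM of each gene on a log axis, with 1 symbol per mouse and a line at the median of each group of 5. Squares are the 3 libraries with *Acta1* RNA, which hold the highest *Fasn* values (860.3 to 1341.2), and triangles the 2 libraries with *Xist* RNA.

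In WT mice, all 10 genes rose under Ang II. Genes were called when limma gave a Benjamini-Hochberg adjusted p below 0.05 over all genes tested and a difference above 1 in size on the log2(FPKM + 1) scale, and all later differences are on this scale. All 10 genes were called higher, where 8.66% of the 11994 genes tested were called, 6.38% higher and 2.28% lower, and the groups of all 10 did not overlap, against 17.3% of genes. The difference was largest for *Scd1* (4.73 ± 0.72, SE; limma adjusted p = 0.00197) and *Gpd1* (4.68 ± 0.78; adjusted p = 0.00235) and smallest for *Me1* (1.70 ± 0.30; adjusted p = 0.00290). The median over the 10 genes was 3.63, and over all genes tested -0.14. Without the 3 libraries with *Acta1* RNA, 2 Ang II-treated WT mice were left and no gene at all was called by limma in this comparison (unadjusted p below 0.05 for 1957 of 11489 genes). *Elovl6* fell below the filter in that fit, and the other 9 genes had differences of 0.93 to 3.91, adjusted p-values of 0.125 to 0.184 and unadjusted p-values below 0.05. In those 2 mice, each of the 10 genes was still above every saline-treated WT mouse, at 179.3 and 186.1 FPKM against at most 89.4 for *Fasn*.

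In *Plod1-/-* mice, none of the 10 genes was called between Ang II and saline by limma, where 13.9% of 12333 genes were called, 8.38% higher and 5.51% lower, and 1 of the 10 had an unadjusted p below 0.05. The differences ran from -0.68 ± 0.28 (SE; adjusted p = 0.0765) for *Me1* to 1.16 ± 0.99 (adjusted p = 0.370) for *Scd1*. The other genes lay between, with *Fasn* at -0.64 ± 0.82 and *Mlxipl* at 0.54 ± 0.71. The median was 0.13, beside 0.05 over all genes tested, and the groups overlapped for all 10, where 29.2% of genes did not overlap. The spread within the groups was wide, with SEs up to 1.09 for *Gpd1*, which limits what could be detected here.

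Between the saline-treated genotypes, none of the 10 genes was called by limma, where 0.767% of 11999 genes were (9.52% did not overlap between the groups), and none had an unadjusted p below 0.05. All 10 differences were positive, from 0.38 ± 0.26 for *Me1* to 1.44 ± 0.86 (SE; limma adjusted p = 0.301) for *Thrsp*. The sums of the 10 genes overlapped widely, at 84.0 to 698 FPKM in WT and 149.8 to 2704 FPKM in *Plod1-/-* mice.

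Under Ang II, all 10 genes were lower in *Plod1-/-* than in WT mice. All 10 were called lower, where 11.1% of the 12356 genes tested were called, 3.67% lower and 7.45% higher. *Fasn* differed most, at -3.98 ± 0.69 (SE; limma adjusted p = 0.00359), followed by *Thrsp* at -3.20 ± 0.67 (adjusted p = 0.00736), *Gpd1* at -3.08 ± 0.71 (adjusted p = 0.0103) and *Elovl6* at -2.96 ± 0.43 (adjusted p = 0.00183). *Acly* differed least, at -1.79 ± 0.48 (adjusted p = 0.0180), and *Mlxipl* had the highest adjusted p, 0.0379, at -2.10 ± 0.68. The groups did not overlap for 4 of the 10 genes (*Fasn*, *Elovl6*, *Me1* and *Thrsp*), against 15.1% of all genes tested. The median was -2.56, and over all genes tested 0.12.

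These calls rested on the 3 libraries with *Acta1* RNA, without which 2 WT mice are left. Without them none of the 10 genes, and no gene at all, was called by limma between the Ang II-treated genotypes, with unadjusted p below 0.05 for 4 of the 10 and for 2189 of 11868 genes. All 10 differences stayed negative, from -2.46 to -0.64 with adjusted p-values of 0.130 to 0.494. In the 2 remaining WT mice, *Fasn*, *Elovl6*, *Me1* and *Thrsp* were still above all 5 *Plod1-/-* mice, and for the other 6 genes 1 or 2 *Plod1-/-* mice lay above the lower WT mouse. Without the *Xist* libraries, 9 of the 10 genes were called, and *Mlxipl* was not. With no filter on low values, 7 of the 10 were called. The call of *Scd1* was lost without WT mouse 2, 3 or 5 or *Plod1-/-* mouse 2 or 3, that of *Mlxipl* without WT mouse 1, 2, 3 or 5 or *Plod1-/-* mouse 1, 3 or 4, and that of *Acly* without WT mouse 3. The other 7 genes were called whichever mouse was left out.

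The response to Ang II differed between the genotypes for all 10 genes. The interaction of genotype and Ang II over the 20 mice was called negative for all 10, where 16.1% of 13263 genes were called, 6.36% negative and 9.69% positive. It was largest for *Fasn* (-5.15 ± 1.22, SE; limma adjusted p = 0.00348), *Thrsp* (-4.64 ± 1.17; adjusted p = 0.00516) and *Gpd1* (-4.14 ± 1.43; adjusted p = 0.0289), and smallest for *Acly* (-2.22 ± 0.67; adjusted p = 0.0150). *Me1* had the lowest adjusted p, 0.000648, at -2.38 ± 0.44. Without the 3 *Acta1* libraries, *Me1* alone of the 10 was called, and all 10 terms stayed negative. Calls of *Scd1*, *Gpd1* and *Mlxipl* were lost together without any one of 8 mice (WT 1, 2 and 4 and *Plod1-/-* 1 and 2 under saline, WT 2 and 3 and *Plod1-/-* 3 under Ang II). Over all 20 fits that each left out 1 mouse, the call of *Scd1* was lost in 11, of *Mlxipl* in 10 and of *Gpd1* in 8. The other 7 genes were called whichever mouse was left out. With no filter on low values, 7 of the 10 were called. The genotype and Ang II comparisons share groups, so they are not independent of each other.

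**Figure D2:**
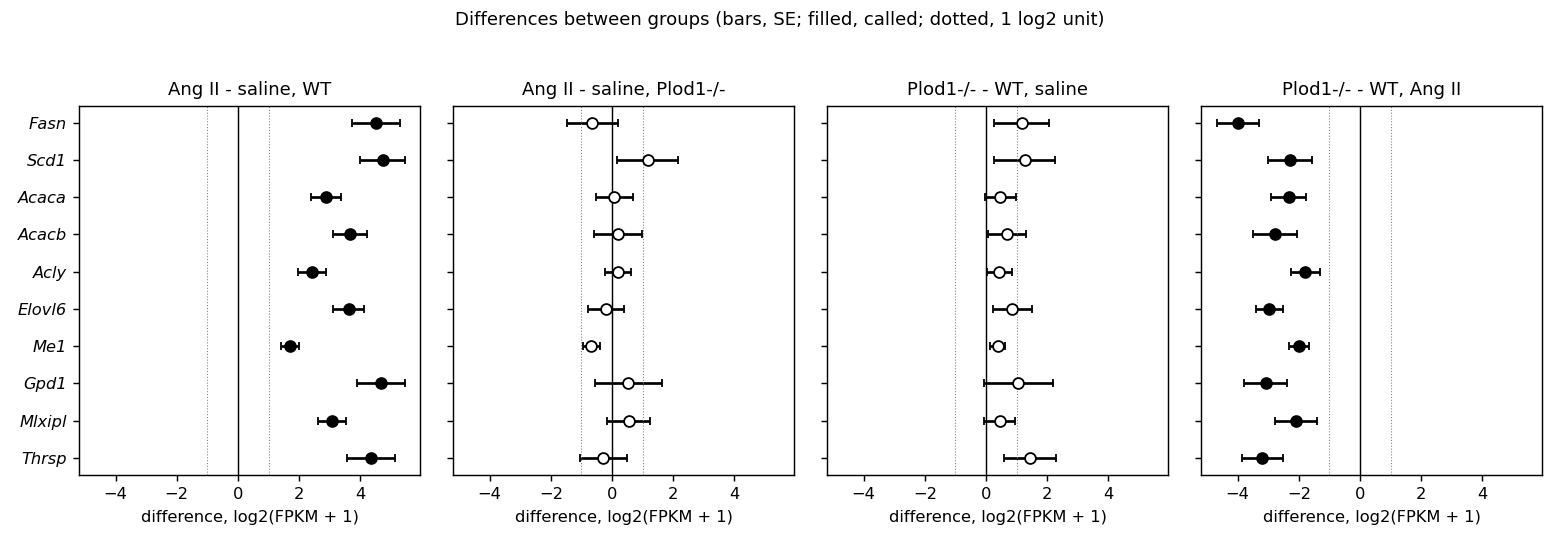
Differences between groups in log2(FPKM + 1), with bars for the SE, 5 mice per group. Filled symbols were called: 10 of 10 genes for Ang II in WT mice and 10 of 10 between the Ang II-treated genotypes, and none in the middle panels.

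Adipocyte RNA differed between the groups too, by an amount that depended on the markers read. The mean of 9 markers shared by white and brown adipocytes, such as *Adipoq*, *Plin1* and *Fabp4*, rose by 3.23 log2 units with Ang II in WT mice (two-sided exact permutation p = 0.00794, the smallest that 5 against 5 mice allow). Between the Ang II-treated genotypes the difference was -1.33 (*Plod1-/-* minus WT), with overlap (exact permutation p = 0.0952). The mean of 12 brown markers, such as *Ucp1*, differed by -2.21 with no overlap (exact permutation p = 0.00794), and the mean of 6 white markers by 0.24 (exact permutation p = 0.619). *Ucp1*, the uncoupling protein of brown fat, was 208 to 1879 FPKM in Ang II-treated WT and 36.6 to 164.5 FPKM in Ang II-treated *Plod1-/-* mice. *Adipoq*, adiponectin, was 90.7 to 366 FPKM and 84.9 to 611 FPKM in the same groups and did not pass the test (-0.26; limma adjusted p = 0.747). The Ang II-treated genotypes thus differed in the brown marker list and not detectably in the white one. In Ang II-treated WT mice 1 and 4, outside the 3 *Acta1* libraries, the brown mean was 5.32 and 3.91, against at most 3.70 in Ang II-treated *Plod1-/-* mice. The skeletal muscle marker mean was 0.48 and 1.52 log2 units in these 2 mice, against 0.60 to 1.10 in Ang II-treated *Plod1-/-* mice. Mouse 4 may thus hold some muscle RNA. Whether skeletal muscle RNA added to the brown marker mean of the Ang II-treated WT mice was not tested. In *Plod1-/-* mice, Ang II against saline, 8.38% of all genes were called higher. Among 6 white markers 3 were, led by *Cfd*, adipsin (2.41; limma adjusted p = 0.00727), and *Car3*, a carbonic anhydrase of fat (2.30; adjusted p = 0.0165). Of the 9 shared markers 2 rose, *Adipoq* (2.47; adjusted p = 0.00983) and *Fabp4*, a fatty acid carrier (1.73; adjusted p = 0.0276), whose call was lost without mouse 3, 4 or 5 under saline or mouse 2, 4 or 5 under Ang II. None of the 9 brown markers tested was called by limma there, and 2 had an unadjusted p below 0.05.

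Set against the shared adipocyte markers within each mouse, the 10 genes were still lower in Ang II-treated *Plod1-/-* mice. *Fasn* minus the shared marker mean was 0.21, 2.06, 2.14, 1.499 and 2.41 log2 units in Ang II-treated WT mice 1 to 5 and -0.86, -1.99, -0.999, -0.89 and -0.21 in Ang II-treated *Plod1-/-* mice. The values did not overlap, and the means differed by -2.66. *Elovl6* (-1.63), *Gpd1* (-1.75) and *Acacb* (-1.45) also did not overlap, whereas *Thrsp* (-1.87), *Acaca* (-1.01), *Scd1* (-0.97), *Mlxipl* (-0.77), *Me1* (-0.67) and *Acly* (-0.47) did. In all, 10 of 10 genes were lower and 4 did not overlap, against 0.129% of the 12356 genes that were lower without overlap on the same scale. The median of that difference over all genes was 1.45, since a gene that does not follow the markers is higher relative to them where they are lower. Between the saline-treated genotypes all 10 overlapped on this scale. *Plod1-/-* minus WT was -0.47 for *Me1*, -0.43 for *Acly*, -0.41 for *Mlxipl*, -0.39 for *Acaca* and -0.17 for *Acacb* there. It was 0.000124 for *Elovl6*, 0.20 for *Gpd1*, 0.31 for *Fasn*, 0.41 for *Scd1* and 0.58 for *Thrsp*. For *Acly* the difference was thus about as large without Ang II. Ang II-treated *Plod1-/-* mouse 2 had the highest white marker mean of the 20 mice (6.40 log2 units), with *Adipoq* at 611 FPKM and *Fasn* at 50.03 FPKM. Within *Plod1-/-* mice, where the shared marker mean was 1.04 higher under Ang II than under saline with overlap (exact permutation p = 0.183), 5 of the 10 genes were lower relative to it under Ang II without overlap, against 0.551% of 12333 genes, with a median of -0.99 over all genes. They were *Me1* (-1.72), *Fasn* (-1.68), *Thrsp* (-1.33), *Acaca* (-0.97) and *Acacb* (-0.85), and *Scd1* differed by 0.12. A gene that does not change is lower relative to markers that are higher, so lack of overlap here does not show a fall of the gene itself. *Acaca* and *Acacb* were no lower than the median of all genes, and their own differences were 0.08 ± 0.60 and 0.19 ± 0.78 (SE). In WT mice, where the markers rose more and 96.3% of genes were lower relative to them without overlap, *Me1* was too (-1.52), whereas *Scd1* was higher without overlap (1.503) and the other 8 genes overlapped.

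Relative to the brown markers the picture changed. Of the 10 genes, 7 were lower in Ang II-treated *Plod1-/-* mice and 1, *Elovl6* at -0.75, did not overlap, against 0.0243% of genes, with a median of 2.33 over all genes. *Fasn* differed by -1.77 with overlap, *Scd1* by -0.09, and *Acly* (0.42), *Me1* (0.22) and *Mlxipl* (0.12) were positive. Relative to the white markers all 10 were lower, from -2.03 for *Acly* to -4.22 for *Fasn*, and 9 did not overlap, against 2.68% of genes, with a median of -0.12 over all genes. The exception was *Scd1*, at -2.54 with overlap.

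**Figure D3:**
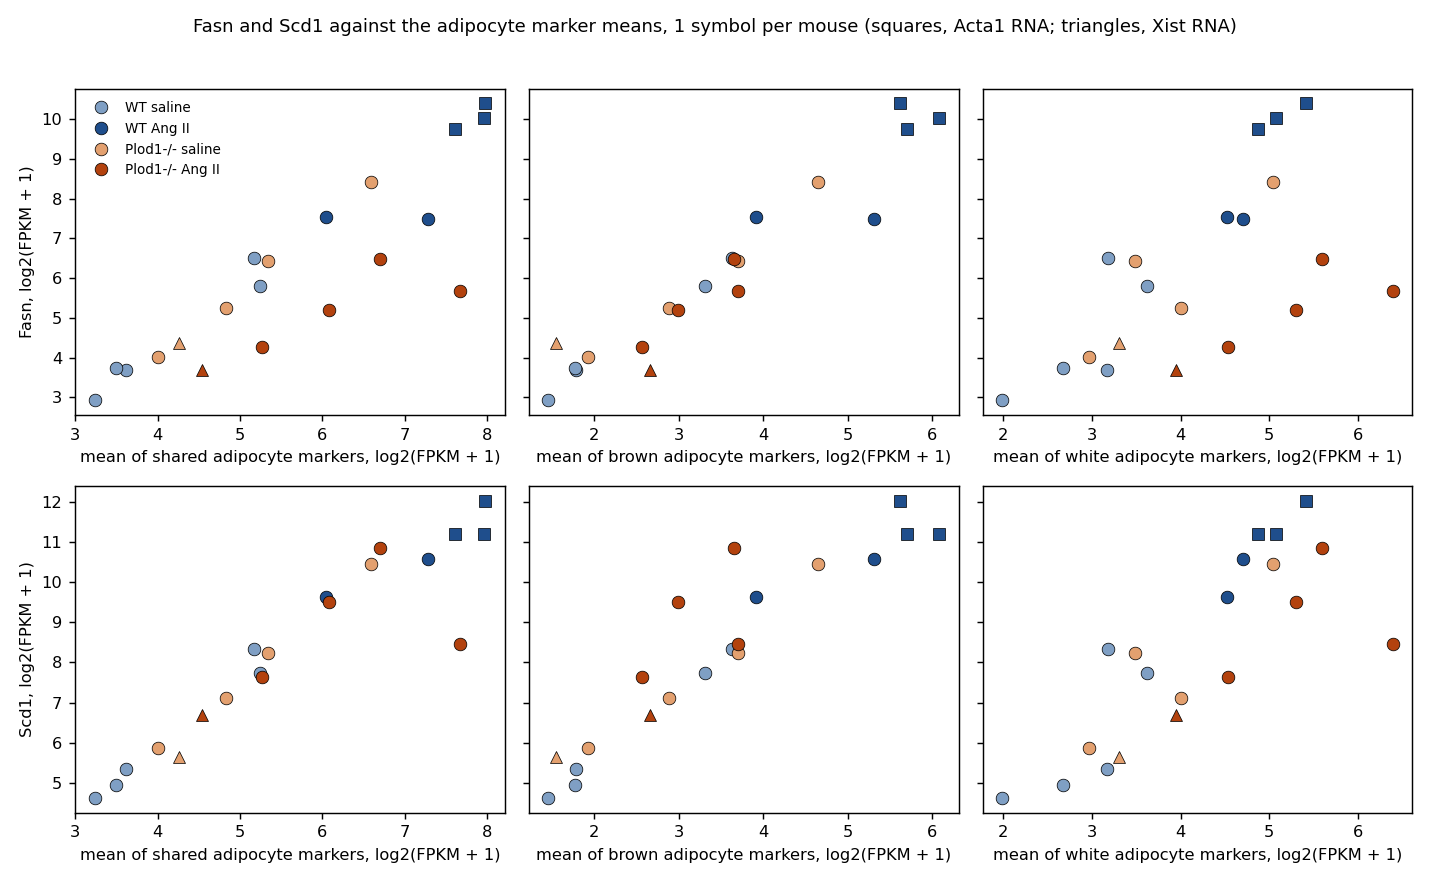
*Fasn* (top) and *Scd1* (bottom) in log2(FPKM + 1) against the mean of the shared, brown and white adipocyte markers, with 1 symbol per mouse. At a given level of shared or white markers the Ang II-treated *Plod1-/-* mice lie low for *Fasn*. They differed from Ang II-treated WT mice by -2.66 relative to the shared mean and by -1.77 relative to the brown mean. *Fasn* minus the brown mean was 1.94 in them and 3.71 in Ang II-treated WT mice. It was 2.14 in saline-treated WT and 2.75 in saline-treated *Plod1-/-* mice.

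With the shared marker mean as a term in the model, 7 of the 10 genes were called lower in Ang II-treated *Plod1-/-* mice, where 10.2% of genes were called, 2.72% lower and 7.49% higher. They were *Fasn* (-2.68 ± 0.54, SE; limma adjusted p = 0.0131), *Elovl6* (-2.17 ± 0.36; adjusted p = 0.00746), *Thrsp* (-1.86 ± 0.47; adjusted p = 0.0244), *Gpd1* (-1.44 ± 0.25; adjusted p = 0.00806), *Me1* (-1.40 ± 0.26; adjusted p = 0.0105), *Acacb* (-1.09 ± 0.16; adjusted p = 0.00509) and *Acaca* (-1.07 ± 0.31; adjusted p = 0.0369). *Scd1* (-1.13 ± 0.67; adjusted p = 0.238), *Acly* (-1.16 ± 0.51; adjusted p = 0.123) and *Mlxipl* (-0.52 ± 0.22; adjusted p = 0.116) were not called. The slope on the marker mean was 0.98 ± 0.24 for *Fasn*, 1.18 ± 0.10 for *Mlxipl* and 0.45 ± 0.12 for *Me1*, in log2 units of the gene per log2 unit of the markers. In the same model, 7 of 9 brown markers and 3 of 14 fatty acid oxidation genes were called lower, and 2 of 6 white markers higher. Among the 9 shared markers themselves, 2 were called lower, led by *Adrb3* (-1.45; limma adjusted p = 0.0222), and 1 higher, *Adipoq* (1.01; adjusted p = 0.0203).

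The calls of the 10 genes depended on the markers chosen. With brown markers in the model none of the 10 was called by limma or had an unadjusted p below 0.05, the differences ran from -0.81 for *Elovl6* to 1.32 for *Mlxipl*, and 156 genes were called in all. The brown marker mean itself did not overlap between the genotypes, so in this comparison brown markers and genotype cannot be told apart. With white markers all 10 were called lower, from -1.94 for *Acly* to -4.30 for *Fasn*. Without Ang II-treated *Plod1-/-* mouse 2, *Elovl6* and *Gpd1* alone were called with the shared markers, and without the *Acta1* libraries none was. The call of *Acaca* was lost in 8 of 10 fits that each left out 1 mouse (all but those without WT or *Plod1-/-* mouse 1), and that of *Thrsp* in 5 (WT mouse 3 or 4, *Plod1-/-* mouse 2, 4 or 5). With no filter on low values 4 genes were called (*Elovl6*, *Gpd1*, *Me1* and *Acacb*).

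Over all 20 mice, the interaction beside the shared markers was called negative for 4 of the 10 genes, where 12.2% of genes were called, 3.65% negative and 8.53% positive. They were *Fasn* (-2.29 ± 0.66, SE; limma adjusted p = 0.0176), *Elovl6* (-1.94 ± 0.50; adjusted p = 0.00969), *Thrsp* (-1.85 ± 0.59; adjusted p = 0.0289) and *Me1* (-1.44 ± 0.30; adjusted p = 0.00333). The call of *Thrsp* was lost in 3 and that of *Fasn* in 1 of 20 fits that each left out 1 mouse. *Acacb*, at -0.82 ± 0.22 (adjusted p = 0.0119), had a lower adjusted p than *Fasn* and missed only the fold limit. The smallest terms were those of *Mlxipl*, at -0.27 ± 0.31 (adjusted p = 0.549), *Gpd1*, at -0.63 ± 0.60 (adjusted p = 0.464), and *Scd1*, at -0.64 ± 0.82 (adjusted p = 0.594). With brown markers in their place *Me1* alone was called (-1.17 ± 0.36; adjusted p = 0.0423), with *Elovl6* at -1.11 ± 0.41 (adjusted p = 0.0830). With white markers all 10 were called, and without Ang II-treated *Plod1-/-* mouse 2, or without the *Acta1* libraries, *Elovl6* and *Me1* were.

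**Figure D4:**
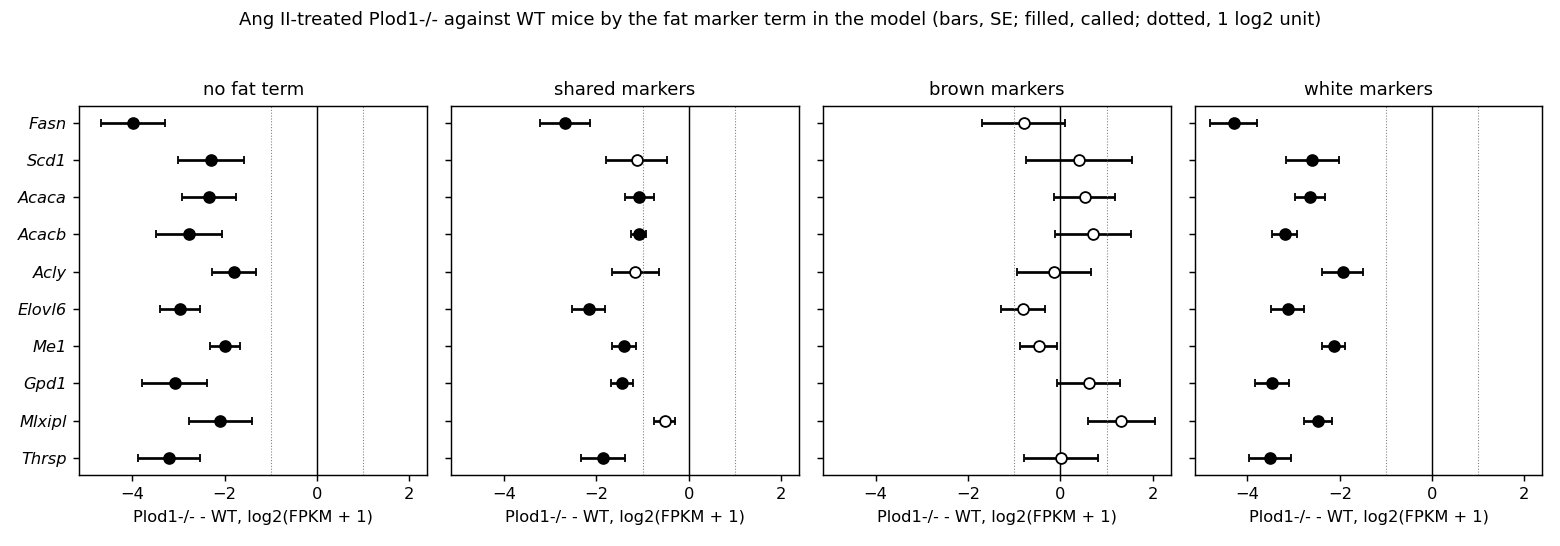
Difference between Ang II-treated *Plod1-/-* and WT mice in log2(FPKM + 1), with SE bars, in models with no fat term and with the shared, brown or white marker mean. The number of genes called (filled) was 10, 7, 0 and 10.

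Markers of other cells also moved with these groups. Between the Ang II-treated genotypes, 7.45% of all genes were called higher and 3.67% lower. All 6 macrophage markers rose in *Plod1-/-* relative to WT mice under Ang II, and their summed FPKM was 285 to 1676 in WT and 803 to 4500 in *Plod1-/-* mice. All 4 red blood cell markers rose likewise, at 177 to 637 FPKM and 726 to 9407 FPKM. Of 8 smooth muscle markers, 2 fell, and their sum was 5532 to 17074 FPKM and 2327 to 16992 FPKM. The summed skeletal muscle markers were 2.71 to 287.8 FPKM in WT and 3.62 to 8.68 FPKM in *Plod1-/-* mice, and 2 of 4 tested fell. Their part in the result was not tested. Of 6 markers of hepatocytes, another lipogenic cell type, the summed FPKM was 10.2 to 53.3 and 89.8 to 167 under saline and Ang II in WT mice, and 16.3 to 88.5 and 17.5 to 474.7 in *Plod1-/-* mice. Most of the sum was *Cyp2e1*, a cytochrome P450 of liver that is also found in fat, which was higher with Ang II in WT mice (2.69; limma adjusted p = 0.00330) and did not pass the test between the Ang II-treated genotypes (-0.19; adjusted p = 0.856). The defining marker *Alb*, albumin, was at most 1.66 FPKM in any library, *Ttr* reached 14.5 FPKM in 1 Ang II-treated *Plod1-/-* mouse, and the other 3 were at most 3.43 FPKM.

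Around the pathway, the genes that supply its carbon moved with it in part. Of 15 tested genes of precursor and NADPH supply, 13 rose with Ang II in WT mice and 8 fell in *Plod1-/-* relative to WT mice under Ang II, with a median of -1.10. Over all genes, 6.38% were called higher in the first comparison and 3.67% lower in the second. *Slc25a1*, the mitochondrial citrate carrier, was 75.0 to 402 FPKM in Ang II-treated WT and 40.2 to 76.4 FPKM in Ang II-treated *Plod1-/-* mice (-1.80; limma adjusted p = 0.0123). *Acss2*, which makes acetyl-CoA from acetate, differed by -2.16 (adjusted p = 0.00634), and by -1.50 (adjusted p = 0.0354) beside the shared fat markers. *Slc2a4*, the insulin-regulated glucose transporter GLUT4, differed by -2.10 (adjusted p = 0.0262). *G6pdx*, the first enzyme of the NADPH-yielding pentose phosphate pathway, rose with Ang II in WT mice (1.18; adjusted p = 0.00321) and was at -0.31 (adjusted p = 0.405) between the Ang II-treated genotypes.

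Of 21 regulators of lipogenesis tested, 2 were called lower between the Ang II-treated genotypes, against 3.67% of all genes, and none higher. They were *Ppargc1b*, a coactivator (-1.60; limma adjusted p = 0.00608), and *Insig1*, an SREBP-retaining protein that is itself induced by SREBP (-1.41; adjusted p = 0.0107). The median of the list was -0.28, beside 0.12 over all genes tested. *Srebf1*, the gene of SREBP-1c, was 12.6 to 36.3 FPKM in Ang II-treated WT and 10.2 to 49.5 FPKM in Ang II-treated *Plod1-/-* mice, a difference of 0.09 (adjusted p = 0.881), after an increase of 1.31 (adjusted p = 0.00374) with Ang II in WT mice. Under saline *Srebf1* was 7.06 to 12.6 FPKM in WT and 12.98 to 22.1 FPKM in *Plod1-/-* mice without overlap, a difference of 0.82 (adjusted p = 0.0238) that is below the fold limit. *Pparg*, the adipocyte master regulator, differed by -1.06 (adjusted p = 0.153) and *Nr1h3*, the gene of LXRα, by -0.79 (adjusted p = 0.0848). *Srebf2*, at 0.38 (adjusted p = 0.126), and *Mid1ip1*, a paralogue of Spot 14, at -0.04 (adjusted p = 0.847), were not called either.

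Of 10 other elongases and desaturases tested, *Elovl3*, an elongase of brown fat, alone fell between the Ang II-treated genotypes (-3.16; limma adjusted p = 0.0126). Over all genes 3.67% were called lower, and the median of the list was 0.29. *Scd2*, the desaturase of many non-adipose cells, was at 0.25 (adjusted p = 0.666), and *Elovl5*, an elongase of polyunsaturated fatty acids, at -0.04 (adjusted p = 0.873). *Scd2* rose with Ang II in both genotypes, by 1.17 (adjusted p = 0.0111) in WT and by 1.07 (adjusted p = 0.0280) in *Plod1-/-* mice. The first call was lost without Ang II-treated WT mouse 5, and the second without mouse 3, 4 or 5 of either *Plod1-/-* group.

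Of 18 triglyceride synthesis genes tested, 8 fell and 1 rose in *Plod1-/-* relative to WT mice under Ang II, with a median of -0.97. Over all genes, 3.67% were called lower and 7.45% higher. *Dgat2*, which adds the last acyl chain, differed by -2.72 (limma adjusted p = 0.0129), *Agpat2*, which acylates lysophosphatidic acid, by -2.48 (adjusted p = 0.00759) and *Pck1*, the glyceroneogenic PEP carboxykinase, by -2.06 (adjusted p = 0.0470). *Gpam*, the mitochondrial glycerol-3-phosphate acyltransferase, was at -0.36 (adjusted p = 0.608).

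Genes that burn fatty acids changed in the same direction as those that make them. Of 14 fatty acid oxidation genes tested, 13 rose with Ang II in WT mice, and 12 fell in *Plod1-/-* relative to WT mice under Ang II with a median of -1.59. Over all genes, 6.38% were called higher in the first comparison and 3.67% lower in the second. *Hadhb*, of the mitochondrial trifunctional protein, differed most (-2.29; limma adjusted p = 0.00596). *Cpt1a*, the liver-type carnitine palmitoyltransferase, was at 0.18 (adjusted p = 0.609), and *Cpt1b*, the muscle and brown fat type, was at most 2.52 FPKM and was not tested.

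Cholesterol synthesis genes rose in part with Ang II. In WT mice 4 of 16 tested were called higher, against 6.38% of all genes, and none lower, with a median of 0.56. They were led by *Acat2*, which makes acetoacetyl-CoA (1.96; limma adjusted p = 0.00187), and *Nsdhl*, a sterol dehydrogenase (1.40; adjusted p = 0.00181). In *Plod1-/-* mice 2 of 17 tested were called higher with Ang II, against 8.38% of all genes, and none lower. All 17 differences were positive there, with a median of 0.75, and 11 had an unadjusted limma p below 0.05. Of 17 genes tested, 2 were called higher, against 7.45% of all genes, and none lower in *Plod1-/-* relative to WT mice under Ang II, with a median of 0.09. *Mvd*, mevalonate diphosphate decarboxylase, was among them (1.06; limma adjusted p = 0.00476).

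**Figure D5:**
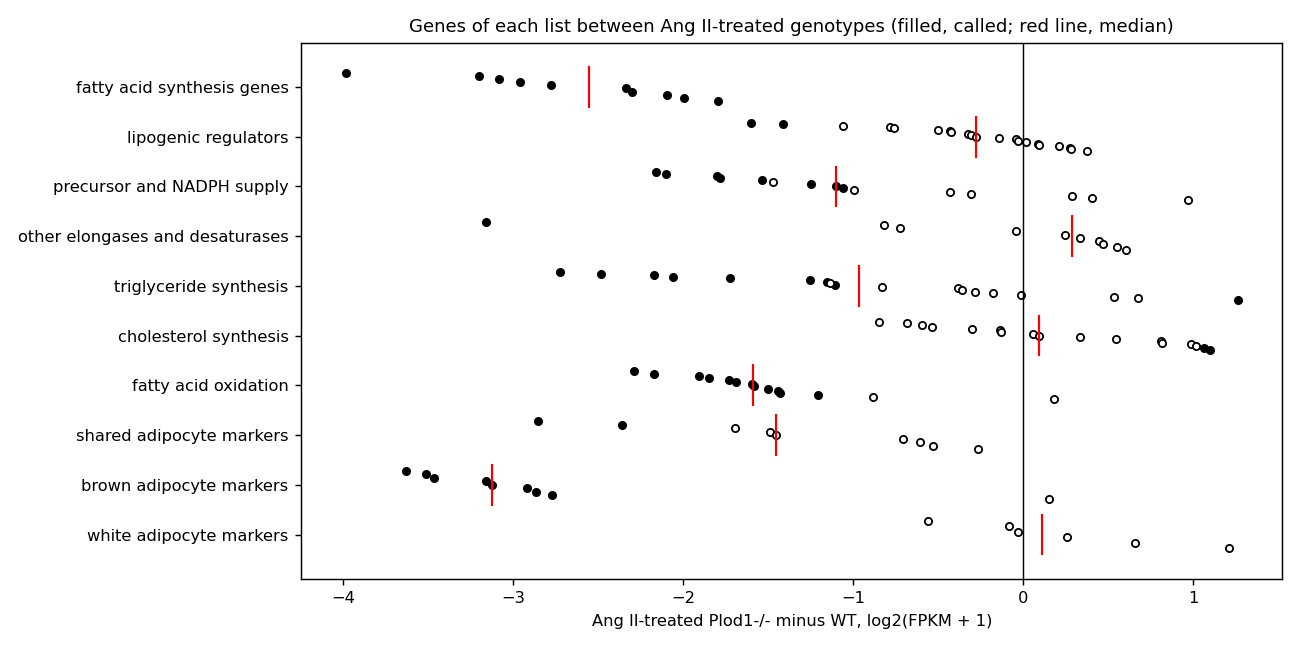
Difference of each gene between Ang II-treated *Plod1-/-* and WT mice in log2(FPKM + 1), by list, with filled symbols for called genes and a red line at the list median. The medians run from -3.13 for brown adipocyte markers and -2.56 for the fatty acid synthesis genes to 0.29 for other elongases and desaturases.

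The genes whose log2 level over the 20 mice was most like the mean of the 10 (standardized per gene) included *Otop1*, *Agpat2*, *Acaa2*, *Gm13910*, *Dlat*, *Hadhb*, *Ucp3*, *Hadh* and *Cs*, with Pearson r from 0.984 to 0.991, given as a description since the mice share their groups. Of 13253 genes compared, 336 had an r above 0.9. Each of the 10 genes had an r of 0.901 (*Me1*) to 0.989 (*Acaca*) with the mean of the other 9. By that standardized mean, Ang II-treated WT mice 5, 2 and 3 stood first, saline-treated *Plod1-/-* mouse 2 came next, above Ang II-treated WT mice 1 and 4, and 3 of the saline-treated WT mice stood last.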

How the data were processed

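RNA of 20 abdominal aortas was sequenced, and FPKM per gene on mouse build mm10 were deposited. The methods name HISAT2 for alignment, StringTie for transcripts, and cuffquant and cuffnorm for FPKM. The labels name HISAT2 2.1.0, Bowtie2 2.2.3 and HTSeq 0.6.0. Which of these tools gave the deposited FPKM cannot be told. Read counts were not used here, so depth was estimated from values below 0.1 FPKM (2305 to 3937 genes). Symbols came from GENCODE M21 for 43226 of 43422 genes. Genes at 1 FPKM or more in at least 5 mice of a fit were tested on log2(FPKM + 1), pseudocount 1, with limma 3.58.1 in R 4.3.3 (variance trend; Benjamini-Hochberg adjustment), after a check on simulated data. Pairs of groups were fitted alone, and the interaction on 4 groups. Fat models added the mean log2(FPKM + 1) of adipocyte markers. The 5 samples of a group are labelled as separate mice. The members, lists and tests were chosen with earlier results of these data known. From each list, the 2 called genes of largest difference and a preset group of genes were named; *Xist*, *Acta1*, *Alb*, *Ttr*, *Acta2* and *Myh11* were added after their values were seen. Same-numbered mice were not paired: 8 of 30 pairs had a correlation above 0.1. Results for some genes are not reported here.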

Additional observations from a re-analysis of the deposited data

Results flagged for a closer look

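A single mouse stood apart from its group in 2 of the 44 groups of 5 values examined, by the ratio of its gap to the range of the group (limit 0.71), which chance exceeds in about 1 in 20 groups. *Me1* in saline-treated *Plod1-/-* mouse 2, at 68.3 FPKM, had a ratio of 0.833. *Mlxipl* in Ang II-treated WT mouse 4, at 11.2 FPKM, had a ratio of 0.729.

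The response to Ang II differed between the genotypes in the interaction model (limma) for all 10 genes. The terms were -5.15 for *Fasn*, -4.64 for *Thrsp*, -4.14 for *Gpd1*, -3.82 for *Elovl6*, -3.56 for *Scd1*, -3.46 for *Acacb*, -2.80 for *Acaca*, -2.54 for *Mlxipl*, -2.38 for *Me1* and -2.22 for *Acly*. With the shared adipocyte markers in the model they were called for 4 genes, at -2.29 for *Fasn*, -1.94 for *Elovl6*, -1.85 for *Thrsp* and -1.44 for *Me1*. Without the 3 libraries with *Acta1* RNA, 1 of the 10 terms was called without and 2 with the fat markers.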

How the results depend on the processing

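Leaving out the 3 *Acta1* libraries, chosen after seeing the data, left 0 of the 10 genes called for Ang II in WT mice, 0 between the Ang II-treated genotypes, 1 for the interaction, and with fat markers 0 and 2. With fat markers, the comparison under Ang II had 4 calls with no filter and 0 with brown markers, and the interaction had 2 with no filter, 1 with brown and 10 with white markers. Leaving out 1 mouse gave 10 to 10 calls for Ang II in WT mice, 0 to 0 in *Plod1-/-* mice and under saline, 7 to 10 under Ang II and for the interaction, and with fat markers 2 to 8 and 2 to 6, the lowest without Ang II-treated *Plod1-/-* mouse 2 in both. With the replicate number as a block, 0 of the 10 genes were called under Ang II with fat markers and no other count of these 10 moved by over 1.5 times; the numbers did not pair the mice (correlations -0.33 to 0.45, own number best in 13 of 60).

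Signs are compared here with the model that holds the shared markers, in whose place the brown or white markers were put. Brown markers turned the sign of the difference under Ang II for *Acaca* (0.53), *Acacb* (0.71), *Gpd1* (0.61), *Thrsp* (0.0102), *Dgat2* (0.59), *Hadhb* (0.23), *Acaa2* (0.36), *Pdhb* (0.0486), *Adrb3* (0.0569), *Agpat2* (0.0635) and *Gpd2* (0.0348). White markers turned the sign, against that with the shared markers, for *Pparg* (-1.36), *Adipoq* (-0.57), *Plin1* (-2.14), *Cebpa* (-0.86) and *Car3* (-0.0732), and in the interaction for *Pparg* (-1.20) and *Cidec* (-0.59). With no fat term, the differences of *Pparg* and *Adipoq* under Ang II were negative already. Of the genes called with neither shared nor brown markers, *Mlxipl* (1.32) and *Scd1* (0.40) also turned positive with brown markers. The cause was not tested.

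Over all genes, calls for Ang II in WT mice went from 1039 to 0 without the *Acta1* libraries, and under Ang II between genotypes from 1373 to 0, or to 2134 with a weight per mouse. The interaction went from 2129 to 941 without them. Under saline, 92 became 149 with a pseudocount of 0.1, 41 with no filter, 60 without the *Xist* libraries, 52 with all groups in 1 fit and 38 to 60 without single mice. With fat markers under Ang II, 1261 became 442 with no filter, 2 with the block, 156 with brown markers, 4 without the *Acta1* libraries and 641 to 822 without single mice, and the interaction went from 1615 to 1076 with brown markers and 1017 without the *Acta1* libraries. Quantile normalization moved the median of all genes under Ang II from 0.12 to -0.03.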
